A study of Mus musculus with 9 samples.

Results

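A group of genes for matrix metalloproteinases, a related protease and their inhibitors was followed in mouse brain after an intracerebral injection of lipopolysaccharide (LPS), a bacterial cell wall component that triggers acute inflammation. They were *Mmp2*, *Mmp3*, *Mmp9*, *Mmp12*, *Mmp14*, *Mmp19*, *Adamts1*, *Timp1*, *Timp2* and *Timp3*, 10 of the 17097 genes that the array annotation named. The members were chosen by symbol, and each was read from the probe set (the group of probes for a transcript) with the highest mean over the 9 arrays among those annotated to that symbol alone. In total, 20 of 45037 probe sets belonged to these genes.

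All mice were adult C57Bl/6J males of 10 to 12 weeks, for which no engineered allele was given, and all received a stereotaxic injection into the striatum. The LPS 4 d group was collected 4 d after LPS, the LPS 1 d group 1 d after LPS, and the PBS group 4 d after phosphate-buffered saline. Each group had 3 arrays, each of RNA pooled from 3 mice, so that spread between arrays is spread between pools. Mice were perfused with saline, and RNA came from a block of brain on the injected side that held many cell types. PBS brains came from 4 d alone. The comparison of LPS 1 d with PBS therefore also holds any effect of time since surgery. Both LPS groups were set against the same 3 PBS arrays.

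Matrix metalloproteinases (MMPs) are zinc-dependent enzymes that cut extracellular matrix, basement membrane and cell surface proteins. Most are secreted as inactive precursors and are activated when their propeptide is cut away. Tissue inhibitors of metalloproteinases (TIMPs) block the active site. In the inflamed brain these enzymes are best known for attacking the vascular basement membrane and the tight junctions of the blood-brain barrier. The arrays measured mRNA, which says nothing of how much of an enzyme is active.

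Values are log2 intensities, on which a difference of 1 is a doubling of signal, and levels are compared only within a probe set. A gene was taken to differ when its adjusted p was under 0.05 by limma, with Benjamini-Hochberg adjustment over all 45037 probe sets, and its fold change was at least 1.5. A group mean at or below 3.49, the highest mean among 23 nonspecific control probe sets, was taken as background. For a fold given as at least some value, the values below 3.49 in the group at background were raised to 3.49. Such a fold is a point estimate that makes no allowance for spread between pools, and is not a lower confidence limit. Intervals printed beside changes are limma's and are not adjusted. Array medians lay between 4.32 and 4.37, and correlations over all probe sets were 0.992 to 0.994 within groups and 0.981 to 0.990 between them. None of 11 measured neuron markers differed in any comparison, and all 11 were above background. Of all genes, 31.3% were at or below background in their mean over the 9 arrays.

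The genes fell into separate courses after LPS. *Mmp3*, *Mmp9*, *Mmp12*, *Adamts1* and *Timp1* had their highest means at 1 d, *Mmp2* was higher at 4 d than in either other group, and *Mmp14* was higher at both times. *Timp2*, *Timp3* and *Mmp19* did not pass the test in any comparison by their probe sets of highest mean. Another *Timp2* probe set was higher in LPS 4 d than in LPS 1 d by 0.77 (adjusted p = 0.00285 by limma). At 4 d, 3 of the 10 genes were higher than in PBS and 0 lower, where 4.21% of all genes were higher and 0.205% lower. At 1 d, 6 were higher and 0 lower, against a background of 3.86% and 0.532% of all genes. Between the LPS groups, 1 of the 10 was higher in LPS 4 d and 4 were lower, where 1.84% of all genes were higher and 1.37% lower. Over the 3 groups together, 7 of 10 differed by the moderated F-test at an adjusted p under 0.05, as did 7.67% of all genes. Without variance moderation, *Mmp9* (adjusted p = 0.0655) and *Mmp14* (0.0538) missed the threshold at 1 d, as did *Mmp2* (0.0603) and *Timp1* (0.0796) between the LPS groups.

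The median log2 change of the 10 genes was 0.64 at 4 d and 1.57 at 1 d relative to PBS, and −0.68 at 4 d compared to 1 d. Over all genes these medians were −0.02, −0.03 and 0.00. Where a single group of a comparison was at background, its values below background were raised to background. The medians of the 10 were then 0.45, 1.25 and −0.68. Changes with both groups at background were kept as measured in these medians, which holds for *Mmp19* throughout and for *Mmp12* at 4 d relative to PBS.

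**Figure D1:**
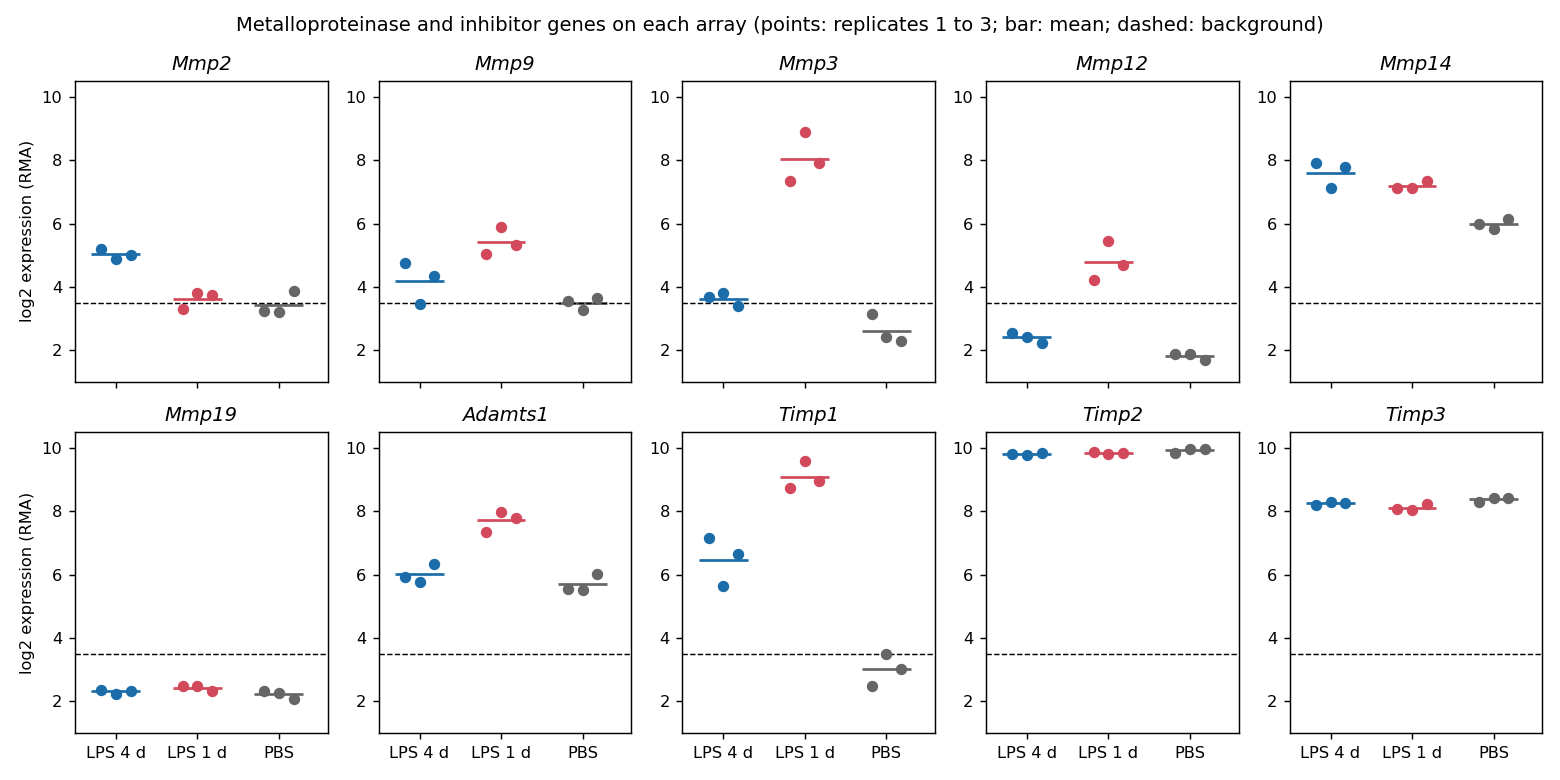
Log2 intensity of each of the 10 genes on every array (points; y axis) in the LPS 4 d, LPS 1 d and PBS groups (x axis), with the group mean as a bar and the background of 3.49 as a dashed line. *Mmp3*, *Mmp12* and *Timp1* stand highest at 1 d, *Mmp2* at 4 d, and *Timp2* and *Timp3* stay nearly level.

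The stromelysin gene *Mmp3* had the largest difference between LPS groups among the 10. Its protein cuts proteoglycans, laminin and fibronectin and activates other proMMPs, proMMP9 among them. The gene lies on chr9:7445822-7455975 (build GRCm38.p6, as are all positions here). Its log2 intensity was 3.66, 3.79 and 3.40 on the LPS 4 d arrays, 7.36, 8.88 and 7.90 on the LPS 1 d arrays, and 3.14, 2.42 and 2.29 on the PBS arrays. All 3 LPS 1 d arrays lay above every other array, and all 3 PBS arrays were at background. At 1 d *Mmp3* was higher than in PBS by 5.43 (SE 0.36, adjusted p = 3.61e-05 by limma), which is at least 23.6-fold with the PBS mean set to background. At 4 d it was lower than at 1 d with a log2 change of −4.43 (SE 0.36, adjusted p = 0.000472). The 4 d arrays still lay above the PBS arrays, but the difference of 1.00 did not pass the test (95% interval 0.19 to 1.82, adjusted p = 0.206). With the PBS mean set to background it was at least 1.09-fold, and LPS 4 d replicate 3 was itself below background.

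*Mmp12*, which encodes the macrophage metalloelastase, had the same order of groups. It lies on chr9:7344397-7360461, close to *Mmp3*. Its log2 intensity was 2.55, 2.43 and 2.23 in the LPS 4 d group, 4.21, 5.46 and 4.68 in the LPS 1 d group, and 1.89, 1.89 and 1.67 in the PBS group. Only the 1 d arrays were above background. *Mmp12* was higher at 1 d than in PBS by 2.96 (SE 0.26, adjusted p = 0.000196) and lower at 4 d than at 1 d with a log2 change of −2.38 (SE 0.26, adjusted p = 0.00188). Because the 4 d and PBS groups were both at background, each of these is at least 2.45-fold, and no fold between those 2 groups is given.

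*Timp1* had the largest measured change of the 10 against PBS. It encodes a secreted inhibitor that binds many MMPs, including MMP9, and lies on chrX:20870166-20874737. Its log2 intensity was 7.15, 5.63 and 6.65 on the LPS 4 d arrays, 8.75, 9.60 and 8.94 on the LPS 1 d arrays, and 2.49, 3.50 and 3.03 on the PBS arrays. No array of a group overlapped with those of another group. At 4 d *Timp1* was higher than in PBS by 3.47 (SE 0.40, adjusted p = 0.0012), at least 7.90-fold. At 1 d it was higher by 6.09 (SE 0.40, adjusted p = 3.41e-05), at least 48.6-fold, and the 4 d level was lower than the 1 d level with a log2 change of −2.62 (adjusted p = 0.00946). As linear intensity it averaged 97.1 ± 46.2 in LPS 4 d, 566 ± 185 in LPS 1 d and 8.35 ± 2.83 in PBS brains (SD, n = 3 each).

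The sequence before the start of these 3 genes is shown because *Mmp3* and *Timp1* had the largest measured changes at 1 d and because *Mmp12*, on the same chromosome as *Mmp3* and highest at the same time, holds the same short match. RefSeq promoter windows were matched for 7 of the 10 genes, 8 windows in all, and the 250 bases before each start were searched on both strands for TGANTCA, the letters that AP-1 factors are known to bind, and for GGG and CC with any 5 bases between them, a loose form of the letters that NF-κB factors are known to bind. The windows shown are *Mmp3* at chr9:7445572-7445821, an internal start of *Mmp12* at chr9:7347124-7347373 and *Timp1* at chrX:20869916-20870165, all on the plus strand and written 5′ to 3′ with the matches in capitals.
Mmp3: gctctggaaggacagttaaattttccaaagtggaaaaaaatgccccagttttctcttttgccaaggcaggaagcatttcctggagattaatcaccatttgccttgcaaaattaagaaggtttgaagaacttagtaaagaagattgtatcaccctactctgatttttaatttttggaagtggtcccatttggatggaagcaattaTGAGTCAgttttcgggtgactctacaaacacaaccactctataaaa
Mmp12: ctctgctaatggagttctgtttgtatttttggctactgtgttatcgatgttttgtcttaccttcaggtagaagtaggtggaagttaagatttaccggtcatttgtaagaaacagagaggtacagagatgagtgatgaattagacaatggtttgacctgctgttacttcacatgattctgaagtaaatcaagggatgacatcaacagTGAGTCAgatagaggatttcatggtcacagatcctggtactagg
Timp1: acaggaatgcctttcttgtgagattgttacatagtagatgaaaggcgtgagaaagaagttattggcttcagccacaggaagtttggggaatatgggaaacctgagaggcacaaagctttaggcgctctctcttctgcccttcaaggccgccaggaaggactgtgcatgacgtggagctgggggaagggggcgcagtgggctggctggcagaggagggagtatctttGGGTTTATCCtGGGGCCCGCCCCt
TGANTCA occurred in 2 of the 8 windows, as TGAGTCA at bases −46 to −40 of *Mmp3* and −44 to −38 of the *Mmp12* window shown, and in 6.75% of 32851 mouse promoter windows. The looser motif occurred in 4 of the 8 windows and in 45.8% of all windows. In *Timp1* it matched 4 times, 3 of them overlapping in 1 GC-rich run next to the start. The other *Mmp12* window, before its outermost start, held no TGANTCA, nor did those of *Timp1*, *Adamts1*, *Mmp14*, *Timp2* and *Timp3*. A match describes the letters only. *Mmp2*, *Mmp9* and *Mmp19* were not searched.

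The gelatinase genes *Mmp9* and *Mmp2* parted in time. Both enzymes cut denatured collagen and the type IV collagen of basement membranes, and MMP9 is stored in neutrophil granules. *Mmp9* (chr2:164940326-164955850) had log2 intensities of 4.75, 3.45 and 4.34 in LPS 4 d, 5.04, 5.88 and 5.32 in LPS 1 d, and 3.54, 3.26 and 3.64 in PBS brains. The 1 d arrays stood above all others, and LPS 4 d replicate 2 lay among the PBS arrays. The PBS mean was at background. *Mmp9* was higher at 1 d than in PBS by 1.93 (SE 0.32, adjusted p = 0.00955), at least 3.62-fold. The change of 0.70 at 4 d relative to PBS did not pass the test (95% interval −0.03 to 1.43, adjusted p = 0.327), nor did that of −1.23 at 4 d compared to 1 d (−1.96 to −0.51, adjusted p = 0.105). A second *Mmp9* probe set averaged 3.03 ± 0.06 in LPS 4 d, 4.30 ± 0.64 in LPS 1 d and 2.06 ± 0.18 in PBS brains (SD, n = 3 each), so that only its 1 d mean was above background. It was at least 1.75-fold higher in LPS 1 d than in either other group, and passed the test against PBS and between the LPS groups (adjusted p = 0.0423).

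*Mmp2* (chr8:92827290-92853421) was the only one of the 10 called higher in LPS 4 d brains than in LPS 1 d brains by the probe sets of highest mean. Its log2 intensity was 5.21, 4.89 and 5.01 on the LPS 4 d arrays, 3.31, 3.82 and 3.76 on the LPS 1 d arrays, and 3.23, 3.19 and 3.86 on the PBS arrays. The 4 d arrays stood clear of the rest, while the 1 d and PBS arrays overlapped. *Mmp2* was higher at 4 d by 1.61 relative to PBS (SE 0.20, adjusted p = 0.00198), at least 2.68-fold, and by 1.41 compared to 1 d (SE 0.20, adjusted p = 0.00694). The 1 d change of 0.20 relative to PBS did not pass the test (95% interval −0.25 to 0.66, adjusted p = 0.697).

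*Mmp14* was higher at both times. It encodes MT1-MMP, a membrane-anchored collagenase that activates proMMP2 at the cell surface with TIMP2 as a bridge, and lies on chr14:54431598-54442456. Its log2 intensity was 7.91, 7.11 and 7.78 in LPS 4 d, 7.11, 7.11 and 7.35 in LPS 1 d, and 5.98, 5.82 and 6.16 in PBS brains. Every LPS array was above every PBS array, and the LPS groups overlapped. *Mmp14* was higher than in PBS by 1.62 at 4 d (SE 0.20, adjusted p = 0.00163, 3.07-fold) and by 1.21 at 1 d (SE 0.20, adjusted p = 0.00811, 2.31-fold). The 0.41 between LPS 4 d and LPS 1 d did not pass the test (95% interval −0.03 to 0.85, adjusted p = 0.421), although without LPS 4 d replicate 2 it was 0.65 and did (adjusted p = 0.0448). A dimmer *Mmp14* probe set, with a mean of 4.17, gave changes of 0.45 at 4 d (adjusted p = 0.49) and 0.55 at 1 d (adjusted p = 0.407) relative to PBS and passed the test in no comparison.

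*Adamts1* encodes a secreted protease that cuts the proteoglycans aggrecan and versican, and lies on chr16:85793827-85803113. Its log2 intensity was 5.93, 5.76 and 6.33 in the LPS 4 d group, 7.36, 7.98 and 7.79 in the LPS 1 d group, and 5.56, 5.50 and 6.03 in the PBS group. The 1 d arrays were above all others, and the 4 d and PBS arrays overlapped. *Adamts1* was higher at 1 d than in PBS by 2.01 (SE 0.21, adjusted p = 0.000573, 4.03-fold) and lower at 4 d than at 1 d with a log2 change of −1.70 (SE 0.21, adjusted p = 0.00326). At 4 d the change of 0.31 relative to PBS did not pass the test (95% interval −0.17 to 0.79, adjusted p = 0.516).

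*Mmp19* (chr10:128790910-128800827), a secreted MMP gene, was at background in every group. Its 9 values lay between 2.07 and 2.49, and its second probe set was at background as well, so no change could be measured.

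The other inhibitor genes were close to level. TIMP2 is the bridge in proMMP2 activation as well as an MMP inhibitor, and TIMP3 is bound to the matrix and also inhibits ADAM17 and ADAMTS enzymes. *Timp2* (chr11:118301061-118355411) had log2 intensities of 9.82, 9.79 and 9.84 in LPS 4 d, 9.88, 9.81 and 9.83 in LPS 1 d, and 9.84, 9.96 and 9.98 in PBS brains. Its change relative to PBS was −0.11 at 4 d (95% interval −0.27 to 0.05, adjusted p = 0.503) and −0.09 at 1 d (−0.25 to 0.08, adjusted p = 0.629). *Timp3* (chr10:86300412-86349505) had 8.19, 8.30 and 8.27 in LPS 4 d, 8.06, 8.03 and 8.23 in LPS 1 d, and 8.30, 8.42 and 8.42 in PBS brains. The 1 d arrays of *Timp3* lay below all PBS arrays, yet the change of −0.27 did not pass the test (95% interval −0.46 to −0.08, adjusted p = 0.142). None of its 4 probe sets passed in any comparison.

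The probe sets of *Timp2* disagreed in direction. Of its 5 probe sets, 4 had changes between −0.22 and −0.11 at 4 d relative to PBS, and the fifth, with a mean of 7.90, went the other way. That probe set read 8.53, 8.25 and 8.24 in LPS 4 d, 7.55, 7.57 and 7.60 in LPS 1 d, and 7.74, 7.83 and 7.77 in PBS brains, with no overlap between groups. It was higher at 4 d than at 1 d by 0.77 (SE 0.09, adjusted p = 0.00285, 1.70-fold). Compared to PBS it was at 0.56 (SE 0.09, adjusted p = 0.00975), a 1.48-fold change, just under the fold required. Which *Timp2* transcripts this probe set reads was not tested.

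**Figure D2:**
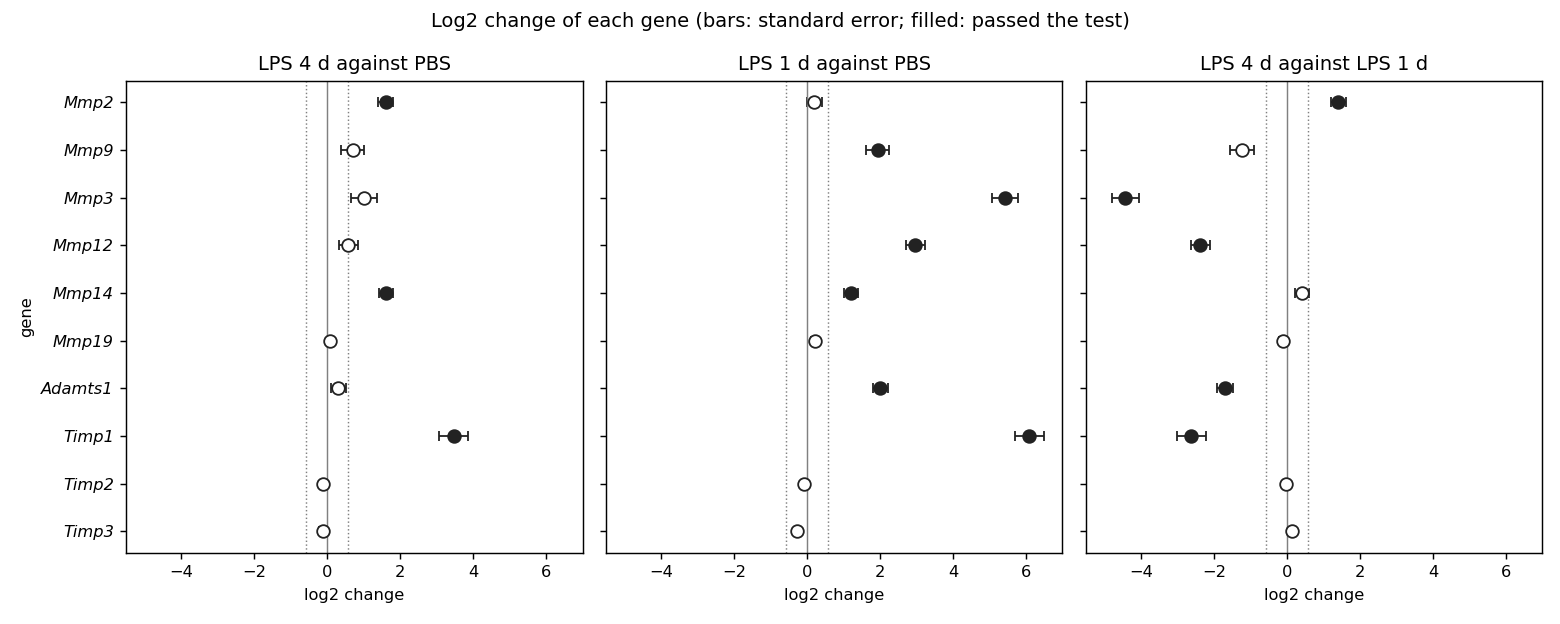
Log2 change of each gene (rows) for LPS 4 d relative to PBS, LPS 1 d relative to PBS and LPS 4 d compared to LPS 1 d (x axis, log2 units), with the standard error from limma as bars, filled points where the test was passed and dotted lines at the 1.5-fold change. *Timp1* and *Mmp3* reach 6.09 and 5.43 at 1 d, and *Mmp2* alone is filled on the positive side between the LPS groups.

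**Figure D3:**
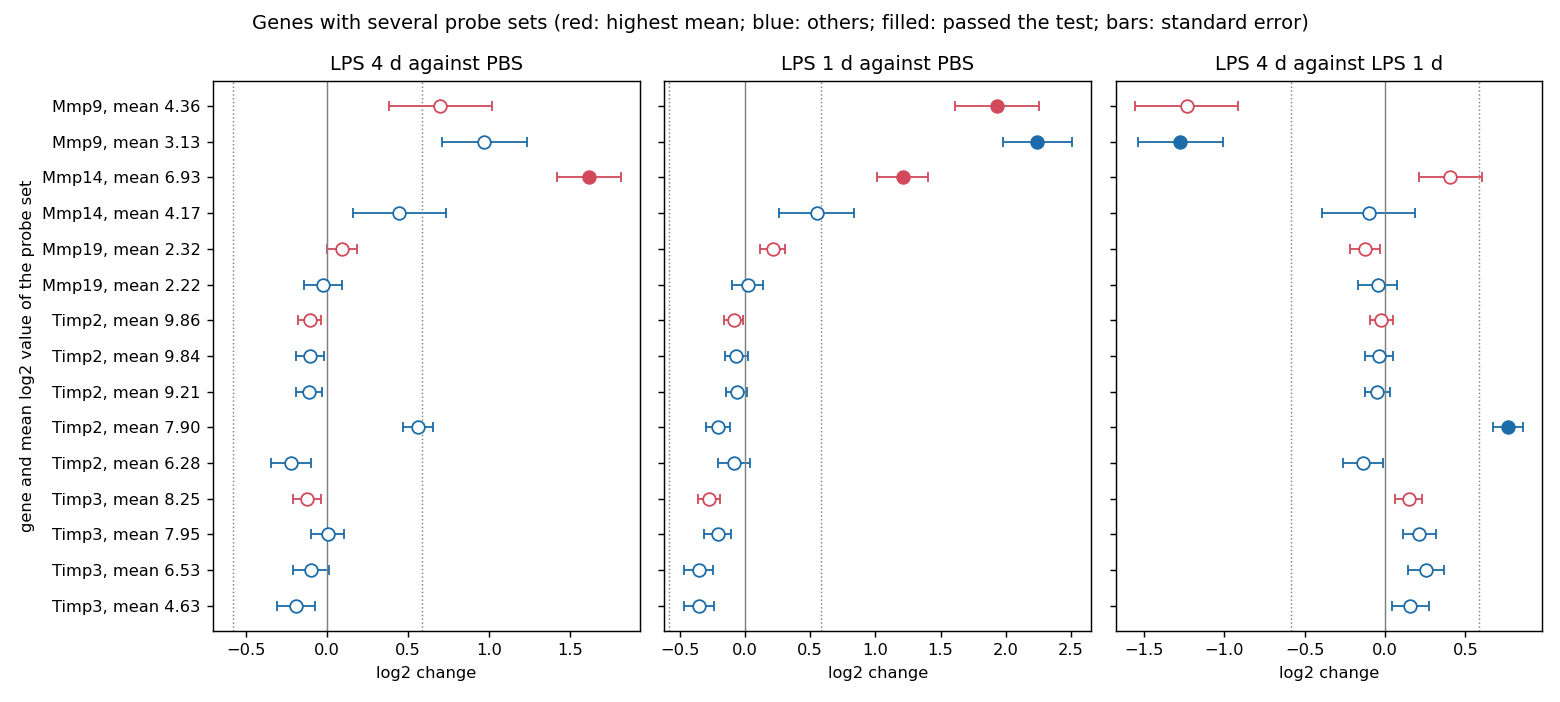
Log2 change (x axis) of each probe set of the genes with more than 1 probe set (rows) in the 3 comparisons, with standard errors as bars, the probe set of highest mean in red, the others in blue, and filled points where the test was passed. The 5 *Timp2* probe sets split at 4 d, with 1 at 0.56 and 4 below 0.

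The genes whose course was most like that of a member were found by the root mean square (RMS) difference in log2 intensity over the 9 arrays, after each gene's own mean was taken off. For *Mmp3* they were *Ptx3* (RMS 0.415), *Ccl2* (0.529) and *Cxcl1* (0.549), which encode pentraxin 3 and chemokines for monocytes and neutrophils. For *Timp1* they were *Acod1* (0.351), the gene for the enzyme that makes itaconate, the chemokine gene *Ccl3* (0.501) and the scavenger receptor gene *Marco* (0.619). For *Mmp12* they were *Ifitm6* (0.128), *Angptl4* (0.265) and *Il1f9* (0.274).

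*Mmp2* was nearest to *Spib* (0.200), a transcription factor gene of B cells and other immune cells, the lysosomal protease gene *Ctsd* (0.238) and *Unc93b1* (0.239), which carries toll-like receptors to endosomes. *Ctsd* was at 1.43 at 4 d and 0.05 at 1 d relative to PBS. *Mmp14* was nearest to *Nfe2l2* (0.136), the gene for the antioxidant regulator NRF2, *Ugt1a9* (0.172) and *Ppic* (0.174). *Mmp9* was nearest to *Samd9l* (0.219), the coagulation factor gene *F10* (0.269) and *Cebpb* (0.279), a transcription factor gene of myeloid cells, and *Adamts1* to *Upp1* (0.171), *Xaf1* (0.183) and *Lbp* (0.214). Among the members that passed a test, the closest pair was *Mmp9* and *Adamts1* (0.365), followed by *Mmp12* and *Adamts1* (0.517) and *Mmp2* and *Mmp14* (0.520), and *Mmp2* and *Mmp3* were far apart (2.66). Some of these neighbours were partly at background. *Spib* was above background only in LPS 4 d brains (mean 3.59), and *F10* (4.33) and *Ifitm6* (5.68) only in LPS 1 d brains. The PBS means of *Ptx3*, *Ccl2*, *Cxcl1*, *Acod1*, *Ccl3*, *Marco* and *Il1f9* were at background. All distances are descriptions over the same 9 arrays for every gene.

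Other metalloproteinase genes were read against the same shares of all genes called in each direction. Of 12 other MMP genes measured, 6 were at background in every group, 0 differed at 4 d (1 without LPS 4 d replicate 3), and 1, the neutrophil collagenase gene *Mmp8*, was higher at 1 d than in PBS, where 3.86% of all genes were. *Mmp8* averaged 2.50 ± 0.24 in LPS 4 d, 4.70 ± 1.11 in LPS 1 d and 2.18 ± 0.42 in PBS brains (SD, n = 3 each), with a wide spread between the 1 d pools and both other groups at background. It was at least 2.31-fold higher in LPS 1 d than in either (adjusted p = 0.0183 against PBS). The call against PBS was lost without LPS 1 d replicate 3, PBS replicate 1 or PBS replicate 3, and its call as lower at 4 d than at 1 d (adjusted p = 0.0477) was kept only without LPS 1 d replicate 1. The median change of the 12 genes was 0.06 at 4 d and 0.08 at 1 d relative to PBS.

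Of 13 other ADAMTS genes, 0 differed at 4 d, and 1 was higher and 2 lower at 1 d relative to PBS, where 3.86% of all genes were higher and 0.532% lower. *Adamts9*, whose protein cuts proteoglycans as ADAMTS1 does, averaged 4.20 ± 0.13 in LPS 4 d, 6.01 ± 0.13 in LPS 1 d and 3.99 ± 0.16 in PBS brains. It was higher at 1 d than in PBS by 2.02 (SE 0.11, adjusted p = 1.55e-05) and lower at 4 d than at 1 d with a log2 change of −1.81 (adjusted p = 0.000206). *Adamts1* had 2.01 and −1.70 in the same comparisons. *Adamts20* was lower at 1 d with a log2 change of −0.74 (adjusted p = 0.0112), as was *Adamts16* (adjusted p = 0.0146), by at least 1.55-fold since its 1 d mean of 3.40 was at background, though the *Adamts16* call was lost without LPS 1 d replicate 1 or 3 or PBS replicate 1 or 3. *Adamts4* was lower in LPS 4 d than in LPS 1 d with a log2 change of −0.64 (adjusted p = 0.0276), a call kept only without LPS 1 d replicate 1. Of 10 ADAM genes, only *Adam17*, the sheddase that releases tumour necrosis factor from cells, was called, higher by 1.28 at 4 d (SE 0.13, adjusted p = 0.000495) and 0.76 at 1 d (adjusted p = 0.00948). Without PBS replicate 1, 2 ADAM genes were called at each time.

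Some genes for proteins that activate, carry or hold MMPs were higher after LPS. Of 16 measured, 3 were higher in LPS 4 d and 5 in LPS 1 d than in PBS brains, where 4.21% and 3.86% of all genes were. In LPS 4 d, 2 of the 16 were lower than in LPS 1 d brains, as were 1.37% of all genes. *Lcn2*, whose product binds MMP9 and protects it from degradation, averaged 9.28 ± 0.51 in LPS 4 d, 11.02 ± 0.33 in LPS 1 d and 4.02 ± 1.45 in PBS brains. It was higher by 5.26 at 4 d (SE 0.61, adjusted p = 0.00124) and 6.99 at 1 d (adjusted p = 0.000174). *Cd44*, a hyaluronan receptor that docks MMP9 at the cell surface, was higher by 2.31 at 4 d and 3.75 at 1 d. *Plaur*, the receptor that focuses plasminogen activation on the cell, was higher by 1.00 at 1 d (SE 0.12, adjusted p = 0.00125) and at 0.29 at 4 d (adjusted p = 0.275). *Cd44* (−1.45) and *Plaur* (−0.71) were lower in LPS 4 d than in LPS 1 d, and both lost this call when replicate 2 or 3 of LPS 1 d, or replicate 3 of LPS 4 d, was left out. *Klk6*, a serine protease gene of oligodendrocytes, was higher by 1.77 at 1 d (SE 0.28, adjusted p = 0.00645), and its call at 4 d (1.44) was lost without any of the PBS arrays and without replicate 1 or 3 of LPS 4 d. *Plat*, the tissue plasminogen activator gene, was higher by 0.59 at 1 d (adjusted p = 0.00883). *Furin*, which cuts the propeptide of MT1-MMP, did not pass the test, with changes of 0.21 at 4 d and 0.33 at 1 d, and *Plau* and *Plg* were at background in every group.

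A further 7 genes were listed as other inhibitors. Of these, *A2m* encodes alpha-2-macroglobulin, which traps proteases of all classes. It averaged 7.44 ± 0.39 in LPS 4 d, 8.81 ± 0.58 in LPS 1 d and 4.82 ± 0.16 in PBS brains. It was higher than in PBS by 2.62 at 4 d (SE 0.28, adjusted p = 0.00081) and 3.99 at 1 d (adjusted p = 5.16e-05). It was lower in LPS 4 d than in LPS 1 d with a log2 change of −1.37 (adjusted p = 0.0423), a call kept only when replicate 3 of LPS 1 d or replicate 1 of LPS 4 d was left out. *Pcolce*, on this list although it is named for an enhancer of procollagen processing, was higher by 0.64 at 4 d (adjusted p = 0.0348). That call was kept only without LPS 1 d replicate 1 or 3. The membrane-anchored MMP inhibitor *Reck* did not pass the test, at 0.10 at 4 d and −0.20 at 1 d relative to PBS. Of 4 serpin genes for inhibitors of plasminogen activators and other proteases, *Serpina3n* was higher by 3.74 at 4 d (SE 0.21, adjusted p = 1.6e-05) and 4.95 at 1 d (adjusted p = 5.11e-06). It was lower in LPS 4 d than in LPS 1 d with a log2 change of −1.20 (adjusted p = 0.0176), which was lost without the same 3 arrays as for *Cd44*.

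Markers of recruited and resident cells moved in the same samples. The tissue is a mixture, and in bulk RNA fewer cells of a type and less RNA per cell cannot be told apart. The summed linear intensity of 14 neutrophil markers was 446 to 782 in LPS 4 d, 2027 to 5173 in LPS 1 d and 148 to 231 in PBS brains, with 2 of 14 called higher in LPS 4 d (4 without PBS replicate 1) and 8 in LPS 1 d than in PBS, and 5 lower in LPS 4 d than in LPS 1 d (3 without replicate 2 or 3 of either LPS group). Over all genes, 4.21% were higher at 4 d, 3.86% were higher at 1 d, and 1.37% were lower between the LPS groups. The 2 markers called at 4 d were *Chil1* (2.74) and *Csf3r* (1.55). Both were above background in PBS brains as well (means 4.83 and 4.58). Which cells expressed them was not tested. The other 12 did not pass the test at 4 d. Among them, *S100a8* (2.50, adjusted p = 0.0628 by limma) and *S100a9* (2.05, adjusted p = 0.0974) missed it with large changes. *Trem3* (0.01) and *Il1r2* (0.33) had small ones. *S100a8* and *S100a9* had the highest 1 d means of the list (10.09 and 10.30) and so weigh most in its 1 d sum. *Chil1* had the highest 4 d mean (7.57). *Elane*, *Mpo*, *Camp* and *Cd177* of this list were at background in every group. The sum of 11 monocyte and macrophage markers was 1195 to 1922 in LPS 4 d, 1180 to 1277 in LPS 1 d and 274 to 323 in PBS brains. Of these, 9 were higher at 4 d and 7 at 1 d than in PBS. Between the LPS groups, 3 were higher at 4 d, *Ms4a7* (4.36) and *Cd5l* (3.14) among them. The 2 lower at 4 d were *Chil3* (−3.09) and *Plac8* (−2.37). The shares over all genes here were 1.84% higher and 1.37% lower.

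The microglial sum was highest in LPS 4 d brains. Over 9 markers it was 1875 to 2136 in LPS 4 d, 588 to 845 in LPS 1 d and 874 to 919 in PBS brains. Against PBS, 5 markers were higher at 4 d and 3 lower at 1 d, where 4.21% and 0.532% of all genes were. The 3 lower at 1 d were *P2ry12*, *P2ry13* and *Gpr34*. At 4 d these were at −0.47, −0.13 and −0.13 and did not pass the test. *Cx3cr1* (9.12) and *Fcrls* (8.98) had the highest 4 d means of the list. The sum of 10 endothelial markers was 993 to 1201 in LPS 4 d, 685 to 770 in LPS 1 d and 747 to 769 in PBS brains. That of 12 fibroblast and mural cell markers, 3 of them at background throughout, was 1536 to 1589 in LPS 4 d, 1251 to 1669 in LPS 1 d and 1021 to 1075 in PBS brains. The sum of 8 astrocyte markers was 6325 to 6883 in LPS 4 d, 6103 to 6158 in LPS 1 d and 5436 to 5759 in PBS brains. *Gfap*, the intermediate filament gene of reactive astrocytes, was higher by 2.50 at 4 d (SE 0.11, adjusted p = 6.93e-06) and 2.83 at 1 d (adjusted p = 3.79e-06).

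The sum of 8 oligodendrocyte markers was 5675 to 6441 in LPS 4 d, 5535 to 5913 in LPS 1 d and 6243 to 6398 in PBS brains. That of 10 choroid plexus markers was 1613 to 3143 in LPS 4 d, 3644 to 5079 in LPS 1 d and 3331 to 4655 in PBS brains. *Ttr* had the highest means of this list (11.08, 11.91 and 11.77) and so weighs most in the sum, yet passed the test in no comparison. *Sostdc1* was lower at 1 d than in PBS (−1.12, adjusted p = 0.0283 by limma), a call lost without replicate 1 or 3 of either group. At 4 d it was at −0.90 (adjusted p = 0.0726). *Otx2*, a transcription factor gene of choroid plexus, was lower in LPS 4 d than in PBS brains with a log2 change of −1.17 (adjusted p = 0.0173), a call lost without LPS 4 d replicate 3 or PBS replicate 1 or 3. *Mmp2* and the microglial, endothelial and astrocyte sums had the 4 d arrays above all others, while the choroid plexus sum had them below all others. *Mmp3*, *Mmp9*, *Mmp12*, *Adamts1* and *Timp1* had the 1 d arrays above all others, as the neutrophil sum did. The monocyte markers *Chil3* (7.91) and *Plac8* (6.81) also had their highest means at 1 d.

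Within groups, LPS 1 d replicate 2 had the highest *Mmp2*, *Mmp3*, *Mmp9*, *Mmp12*, *Adamts1* and *Timp1* of its group, and the highest *Mmp19*, at background. *Mmp14* and *Timp3* were highest in replicate 3 of that group, and *Timp2* in replicate 1. LPS 1 d replicate 2 also had the highest neutrophil (5173), fibroblast and mural (1669), choroid plexus (5079) and astrocyte (6158) sums of its group. Its microglial (588), endothelial (685) and neuron (16767) sums were the lowest of the group. In the LPS 4 d group, replicate 1 was highest and replicate 2 lowest for *Mmp2*, *Mmp9*, *Mmp14* and *Timp1*, and for *Mmp19*, at background. *Mmp3* and *Timp3* were highest in replicate 2, *Adamts1* and *Timp2* in replicate 3, and *Mmp12* was lowest in replicate 3. The neutrophil, macrophage, microglial, endothelial and oligodendrocyte sums were highest in replicate 1 and lowest in replicate 2, while the neuron sum had the opposite ends. The part of any of these cells in the results was not tested. Without LPS 1 d replicate 2, 6 of the 10 genes were again called higher in LPS 1 d than in PBS.

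**Figure D4:**
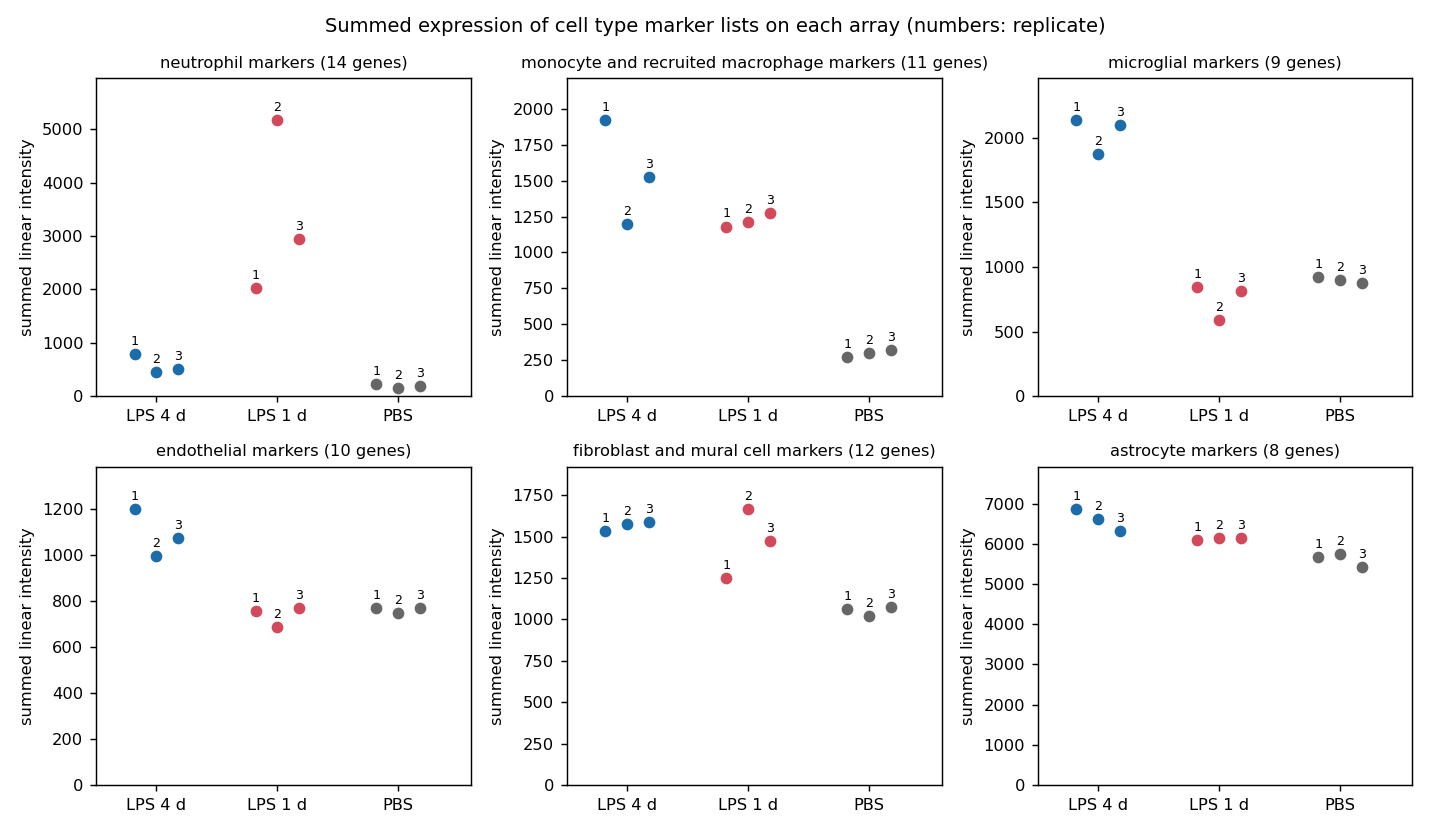
Summed linear intensity of 6 marker lists (panels; y axis from 0) on each array in the LPS 4 d, LPS 1 d and PBS groups (x axis), with the replicate number beside each point. The neutrophil sum reaches 5173 in LPS 1 d replicate 2, and the microglial sum is 1875 or more only at 4 d.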

How the data were processed

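The authors hybridised biotin-labelled RNA to 9 Affymetrix HT MG-430 PM arrays and processed the scans by RMA (background correction, quantile normalisation and median polish) in Affymetrix Expression Console (version not given in the sources used here). Deposited log2 intensities of 45141 rows were used as they stand, of which 104 control entries were left out. Quantile normalisation gives all arrays nearly the same distribution, so changes are relative to the whole array, and low intensities are compressed. An array gives no read depth, and the 3 pools per group limit the precision.

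Linear models were fitted with limma 3.58.1 in R 4.3.3 to all 45037 probe sets, with 1 mean per group and moderated variances (6 residual and 3.02 prior degrees of freedom). Benjamini-Hochberg adjustment ran over all probe sets, and the thresholds of an adjusted p of 0.05 and a 1.5-fold change followed the methods of the study. With 3 arrays a group, exact permutation tests cannot go below p = 0.1, so none was run. Of the probe sets, 28898 had a single symbol, 551 had several and 15588 had none. The fit was tested on simulated data.

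The members and all gene lists were chosen with earlier results of these data known. All 10 members were named. From each list up to 4 genes with the largest change among those called were open to naming, together with the 3 nearest genes for each member called. *Plau*, *Plg*, *Furin*, *Reck*, *Plat*, *Lama2*, *Elane*, *Mpo*, *Camp*, *Cd177* and *Ttr* fell outside this rule and were named after their values were seen. Promoter windows and gene positions came from RefSeq (GRCm38.p6). The alternatives were other variance models, a filter on low values, renewed quantile normalisation, a block for the replicate number, 2 groups at a time, a fold of 2, another probe set per gene and leaving out each array. Those for the gene lists, and the F-test with another probe set, were chosen after seeing the data.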

Additional observations from a re-analysis of the deposited data

Results flagged for a closer look

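The change relative to PBS differed between the LPS groups for 5 of the 10 genes, by limma's test of LPS 4 d against LPS 1 d, which share the PBS arrays. The difference was 1.41 for *Mmp2*, −4.43 for *Mmp3*, −2.38 for *Mmp12*, −1.70 for *Adamts1* and −2.62 for *Timp1*, on the log2 scale. In the same comparison, 1.84% of all genes were higher and 1.37% lower.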

How the results depend on the processing

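Leaving out each array in turn, 3 members were called at 4 d and 6 at 1 d every time, 5 to 6 between the LPS groups, and 6 to 7 differed over the 3 groups. Over all probe sets these counts were 1005 to 1455 at 4 d (1318 with all arrays), 1019 to 1237 at 1 d (1262) and 587 to 912 between the LPS groups (883), the lowest of the last 2 ranges being without LPS 1 d replicate 2. With ordinary tests without moderation, 3 members were called between the LPS groups in place of 5, and 832 probe sets at 4 d and 419 between the LPS groups. That setting lost *Mmp9* (adjusted p = 0.0655) and *Mmp14* (0.0538) at 1 d, and *Mmp2* (0.0603) and *Timp1* (0.0796) between the LPS groups. A fold of at least 2 gave 738, 761 and 476 probe sets. The largest-variance probe set turned *Mmp19* at 4 d to −0.0273, where it is at background, and *Timp2* to 0.56 at 4 d and 0.77 between the LPS groups. *Mmp9* passed between the LPS groups with trended and robust moderation (adjusted p = 0.0227). The cause of these differences was not tested. The low-value filter removed *Mmp19*.

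Same-numbered arrays did not deviate together over all probe sets (r −0.035 to 0.022, against −0.034 to 0.044 for other pairs). No pairing by number was seen, though this cannot exclude one. With the replicate number as a block, 3, 6 and 5 members were called, 6 differed over the 3 groups, and 1188, 1168 and 734 probe sets were called.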

Other observations

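Genes for the structures that MMPs cut moved in part. Of 12 basement membrane genes measured, 2 were higher in LPS 4 d than in PBS brains, where 4.21% of all genes were. In LPS 1 d, 5 were higher and 1, *Lama2* (−0.66, adjusted p = 0.0454 by limma), lower. At that time 3.86% of all genes were higher and 0.532% lower. Without LPS 1 d replicate 1 the 1 d count was 3 in place of 6. *Col4a1*, a chain of type IV collagen, averaged 7.46 ± 0.10 in LPS 4 d, 8.14 ± 0.15 in LPS 1 d and 6.90 ± 0.06 in PBS brains (SD, n = 3 each). It was higher at 1 d by 1.23 (SE 0.10, adjusted p = 0.000104 by limma) and lower at 4 d than at 1 d with a log2 change of −0.68 (adjusted p = 0.00736). *Col4a2*, its partner chain, was higher at 1 d by 0.89 (adjusted p = 0.00175). *Nid1*, the gene for the linker protein nidogen, was higher by 0.94 at 4 d (adjusted p = 0.00151) and 1.01 at 1 d (adjusted p = 0.000825). *Fn1*, the fibronectin gene, which is also on the macrophage list, was higher by 1.36 at 4 d (adjusted p = 0.000638). Its call at 1 d (0.81) was lost without LPS 1 d replicate 1 or 3.

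Of 8 tight junction genes, 3 were higher at 4 d and 2 at 1 d relative to PBS, and 0 were lower. Of all genes, 4.21% and 3.86% were higher and 0.205% and 0.532% lower. *Jam2* was at −0.52 at 1 d (adjusted p = 0.0193 by limma), short of the fold required. It was higher in LPS 4 d than in LPS 1 d by 0.59 (adjusted p = 0.0141), a call lost without any of the LPS 1 d arrays or without LPS 4 d replicate 1. *F11r*, the gene for junctional adhesion molecule A, was higher by 1.41 at 4 d (SE 0.14, adjusted p = 0.000423) and 1.02 at 1 d (adjusted p = 0.0025). *Cldn5*, the main claudin of brain endothelium, was higher by 0.86 at 4 d (adjusted p = 0.00461) and at 0.14 at 1 d (adjusted p = 0.656). It was higher in LPS 4 d than in LPS 1 d by 0.72 (adjusted p = 0.017), a call lost when replicate 1 or 2 of LPS 1 d, or replicate 3 of LPS 4 d, was left out. *Esam*, an adhesion molecule gene of endothelium, was higher by 0.75 at 4 d (adjusted p = 0.0111). The endothelial marker sum, on which *Cldn5* also counts, was 993 to 1201 in LPS 4 d, 685 to 770 in LPS 1 d and 747 to 769 in PBS brains, and its part in this was not tested. Of 11 proteoglycan and perineuronal net genes, 0 were called at 4 d, and *Tnc* (1.20) and *Bcan* (−0.81) were called at 1 d. The shares over all genes are those given with the tight junction genes. *Tnc* kept its call only when replicate 1 of either LPS group was left out, and *Bcan* lost its call without LPS 1 d replicate 2 or any of the PBS arrays.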
